A study of Mus musculus with 9 samples.

Results

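The comparison described here set an Rb-/- mouse prostate epithelial cell line against its wild-type control line while both grew in medium with serum. It rested on 5 of the 9 arrays of the study: 3 of the wild-type line and 2 of the Rb-null line, each grown in RPMI-1640 with 5% fetal bovine serum. The other 4 arrays, 2 of each line after 48 hours in the same medium with no serum, lent their spread to the fit and served for the comparison of media. Total RNA was measured on single-colour oligonucleotide arrays of 12422 probe sets, and the members are all 9686 probe sets that lay above a floor for dim signals on at least 2 of the 9 arrays, of which 8643 carried 1 gene symbol and stood for 7063 genes. The labels name 1 line of each genotype and do not say that arrays came from separate cultures, so p-values measure the spread between these arrays, which may be technical, and a difference between the lines cannot be told apart from one between their genotypes. Arrays carry no read depth. Their small number limits the precision.

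Rb is the retinoblastoma protein, the founding pocket protein. In its underphosphorylated form it binds E2F transcription factors and holds back the genes they drive, which include those of the replication licensing and DNA synthesis machinery; cyclin-dependent kinases phosphorylate it in late G1, E2F is released and S phase begins. Cells without Rb still have the related proteins p107 and p130, and Rb also takes part in differentiation, among others of epithelial and muscle-like cells.

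The targeted gene was read first. On the probe set for Rb1 that could be measured, normalized intensity was 714, 398 and 368 on the wild-type arrays and 114 and 109.5 on the Rb-null arrays. Both Rb-null values lay under the floor of 197, the 25th percentile of all values, to which lower values were raised. Rb1 was therefore at least 2.40-fold lower (log2 difference -1.26, SE 0.23, adjusted p = 0.00435, limma with Benjamini-Hochberg adjustment over all 9686 probe sets, two-sided). Leaving out wild-type array 1, the brightest of the group, gave -0.96, and with Rb-null array 1 or 2 left out the adjusted p was 0.0502 or 0.0566. A second Rb1 probe set read 80.9, 50.1 and 48.1 against 22.1 and 29.5, below the floor throughout. The sources used here do not give which part of the gene was deleted, so whether either probe set lies inside it is unknown.

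Both lines carried the defining transcripts of simple epithelium. Krt8 and Krt18, the keratin pair of luminal cells, read between 7615 and 10465 on every array, and E-cadherin (Cdh1) between 1402 and 1919. Another probe set for Krt18 (33.1 to 91.6) and one for the epithelial marker Dsp (9.9 to 21.6) lay below the floor on all 5 arrays. Among 14 measurable epithelial markers 2 were higher in the Rb-null line (Dsp and Krt8) and 2 lower (Jup and Cldn4), and their summed intensity overlapped between the lines (47801 to 53360 in wild-type, 50836 to 51764 in Rb-null). None of 11 measurable leukocyte markers was called, of 16 on the array. Of 8 measurable endothelial markers (10 on the array) 1 was lower (Pecam1), and of 7 measurable fibroblast markers (12 on the array) 1 (Twist1). The defining markers Ptprc, Tek, Tie1, Lum, Fap and Prrx1 were below the floor on all 5 arrays, but most members of these lists were measurable. The collagen gene Col1a1 was below it on one probe set, and on another read 804, 1056 and 1118 against 1000.1 and 943, with overlap between the lines. Of 7 neuroendocrine and neuronal markers 3 were lower (Ncam1, Uchl1 and Chga) and none was higher. Over all 7063 tested genes, each read by its brightest probe set, 14% were higher and 10.5% lower. Summed levels of the leukocyte, endothelial, fibroblast and neuroendocrine lists were 4689 to 5747, 3351 to 3993, 3974 to 5038 and 6466 to 7500 in wild-type cells and 4952 to 5091, 3270 to 3349, 3916 to 4044 and 6441 to 6552 in Rb-null cells, and their part in the results was not tested. The calls of Krt8, Cldn4, Pecam1, Uchl1 and Chga were lost with Rb-null array 1 or 2 left out. That of Cldn4 was also lost without wild-type array 1 (limma adjusted p = 0.055), on the deposited values (0.225) and after median scaling (0.182). Vimentin (Vim) was below the floor in both lines on the probe set read for it.

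At an adjusted p under 0.05, 1279 probe sets (13.2% of those tested) were higher and 1008 (10.4%) lower in the Rb-null line, and all 2287 (23.6%) separated the Rb-null from the wild-type arrays without overlap. For reference, 23.2% of all tested probe sets had both Rb-null arrays above the 3 wild-type arrays and 27.2% had both below. Most differences were small: 1559 of the called probe sets differed by less than 1.5-fold, 114 were at least 2-fold higher and 84 at least 2-fold lower, and 14 and 17 passed 4-fold. The higher share of calls, 55.9%, moved with the scaling, to 73.4% on the deposited values as given and 68.0% after scaling to a common median. Without one or the other Rb-null array 1028 or 823 probe sets were called. The largest difference of all belonged to a probe set without a single gene symbol (several or none). It read 541, 528 and 510.2 in wild-type and 15312 on both Rb-null arrays (log2 difference 4.86, SE 0.08, limma adjusted p = 9.73e-10).

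**Figure D1:**
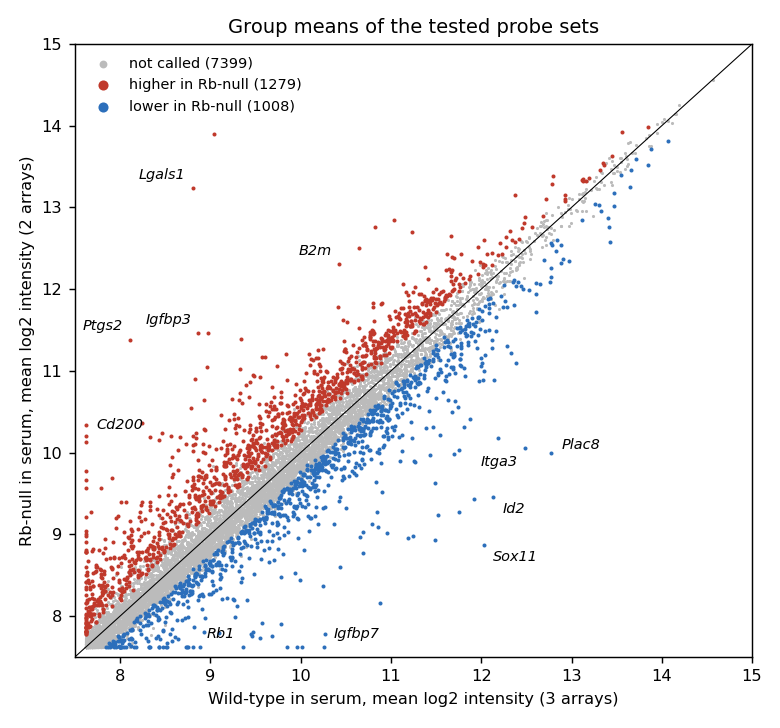
Mean log2 normalized intensity of each of 9686 probe sets in the wild-type line (horizontal axis, 3 arrays) against the Rb-null line (vertical axis, 2 arrays) in serum, with the line of equality. Red points (1279) were called higher and blue points (1008) lower in the Rb-null line, grey points were not called; Lgals1 stands farthest above the line among the named genes and Sox11 farthest below it.

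Wild-type array 1 stood apart from the other wild-type arrays in serum. Its rank correlation across probe sets was 0.974 with array 2 and 0.969 with array 3, where arrays 2 and 3 correlated at 0.995 with each other and the Rb-null arrays at 0.996. With the Rb-null arrays, array 1 correlated at 0.957 and 0.954, array 2 at 0.951 and 0.949, and array 3 at 0.946 and 0.944. On 365 probe sets it lay at least 1.5-fold from the mean of arrays 2 and 3, which differed from each other by that much on 14. Where the lines were called and at least 2-fold apart without it (233 probe sets), it was nearer the wild-type arrays on 206. On 164 it lay on the Rb-null side of those wild-type arrays. These probe sets were selected on arrays 2 and 3, which by itself favours such a position of array 1. The 164 is therefore not a measure of displacement. Repeating the fit without it called 4370 probe sets (45.1%), 2091 higher (21.6%) and 2279 lower (23.5%). Of the 2287 calls made with all arrays, 2283 (99.8%) were called again in the same direction, among them all 198 of at least 2-fold. The 2087 gained calls were mostly small, with a median size of 0.30 on the log2 scale, and 3 of them reached 2-fold.

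**Figure D2:**
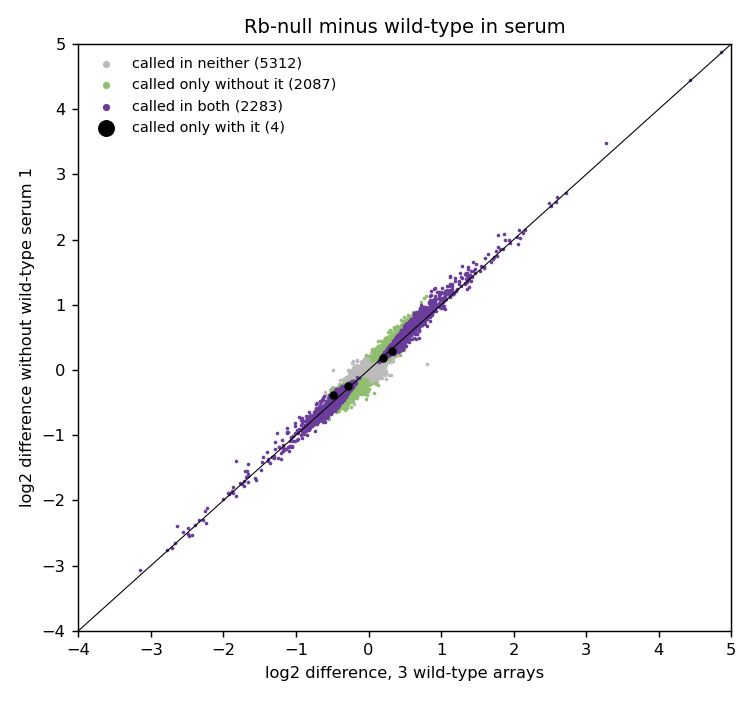
Log2 difference (Rb-null minus wild-type in serum) of each tested probe set with all 3 wild-type arrays (horizontal axis) and without wild-type array 1 (vertical axis), with the line of equality. The 2283 probe sets called both ways follow the line, the 2087 called only without the array lie at small differences, and 4 were called only with it.

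The largest gain among named genes was that of Lgals1, which encodes galectin-1, a secreted lectin that binds cell-surface sugars. It read 463, 431 and 450.2 in wild-type cells and 9585 and 9686 in Rb-null cells, a 21.5-fold difference (log2 4.43, SE 0.07, adjusted p = 9.73e-10). Ptgs2, the inducible cyclooxygenase of prostaglandin synthesis, followed at 363, 256 and 225 against 2517 and 2832 (log2 3.28, SE 0.20, adjusted p = 7.16e-06). The lines were widely apart for both. Igfbp3, a secreted binder of insulin-like growth factors, went from 508, 458 and 438 to 2837 and 2809 (log2 2.60, SE 0.09, adjusted p = 3.29e-07), and the secreted chaperone clusterin (Clu) from 566, 486 and 464 to 2671 and 2968 (log2 2.48, SE 0.15, adjusted p = 7.19e-06). A second Clu probe set differed by 1.93.

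Other genes among the 15 highest, at log2 differences of 1.76 to 2.13, encode proteins of varied function: Cyba (a subunit of NADPH oxidase), the protease Ctse, the serum- and glucocorticoid-induced kinase Sgk1, B2m (beta-2 microglobulin, part of class I MHC), Foxa1 (a pioneer factor of prostate epithelium), Erdr1, the cornified envelope protein Sprr1a, Nabp1 (a single-stranded DNA binder), Has2 (a hyaluronan synthase), the cytokine Il1a and Fam32a. Foxa1 read 439, 275 and 275 against 1164 and 1175 (log2 1.86, SE 0.20, adjusted p = 0.000241). The 15 were called under each of the 16 alternative settings. On 46 called probe sets every wild-type array in serum was at the floor, so only a lower bound can be given. Tnc, the matrix glycoprotein tenascin C, read 178, 173 and 173 against 1269 and 1327, at least 6.60-fold. Cd200, a membrane glycoprotein that restrains myeloid cells, read 26.6, 31.0 and 48.7 against 1205 and 1148, at least 5.98-fold. The chemokine Cxcl1 (at least 5.71-fold), the surface protein Plet1 (4.12), the matrix protein Sparc (3.85) and the aldehyde dehydrogenase Aldh2 (2.68) had smaller bounds. Of these bounds, that of Cxcl1 stood beside a second probe set, measurable in both lines, that differed by 0.64 on the log2 scale.

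In the other direction the farthest was Sox11, a transcription factor of embryonic progenitors. It read 4758, 4209 and 3636 in wild-type cells and 477 and 461 in Rb-null cells, 8.90-fold lower (log2 -3.15, SE 0.13, adjusted p = 7.08e-07), and on its second probe set it was at the floor on both Rb-null arrays. Plac8, a small cysteine-rich protein, read 7014, 6799 and 7116 against 991 and 1052 (log2 -2.77, SE 0.09, adjusted p = 1.48e-07). Wnt7b, a secreted Wnt ligand, read 1844, 2094 and 1717 against 274 and 299 (log2 -2.71, SE 0.12, adjusted p = 1.3e-06). The lines lay far apart for all of these. Id2, which blocks helix-loop-helix factors and can itself bind Rb, read 4631, 4651 and 4202 against 711 and 699 (log2 -2.67, SE 0.08, adjusted p = 1.06e-07).

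Keratin 20 (Krt20), the scaffold protein Akap12, the laminin receptor subunit Itga3, the semaphorin receptor Plxnb2, the thrombin receptor F2r and the caveolar coat protein Cavin1 fell by 2.24 to 2.48 on the log2 scale. Phosphatases Ptpn13 and Ptpn22, the glutathione transferase Gstm2, the adenylate kinase Ak1 and vinculin (Vcl), which ties integrins to actin, fell by 1.89 to 2.01. The 15 lowest, too, were called under each alternative. On 32 called probe sets both Rb-null arrays were at the floor. Igfbp7, a secreted binding protein of the matrix, read 1732, 1118 and 957 against 112 and 117, at least 6.25-fold lower, and wild-type array 1 was again the highest. Peg3, an imprinted zinc-finger gene, read 1062, 1173 and 795 against 91.9 and 94.1, at least 5.07-fold lower, but a second probe set for it fell by 0.47.

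**Figure D3:**
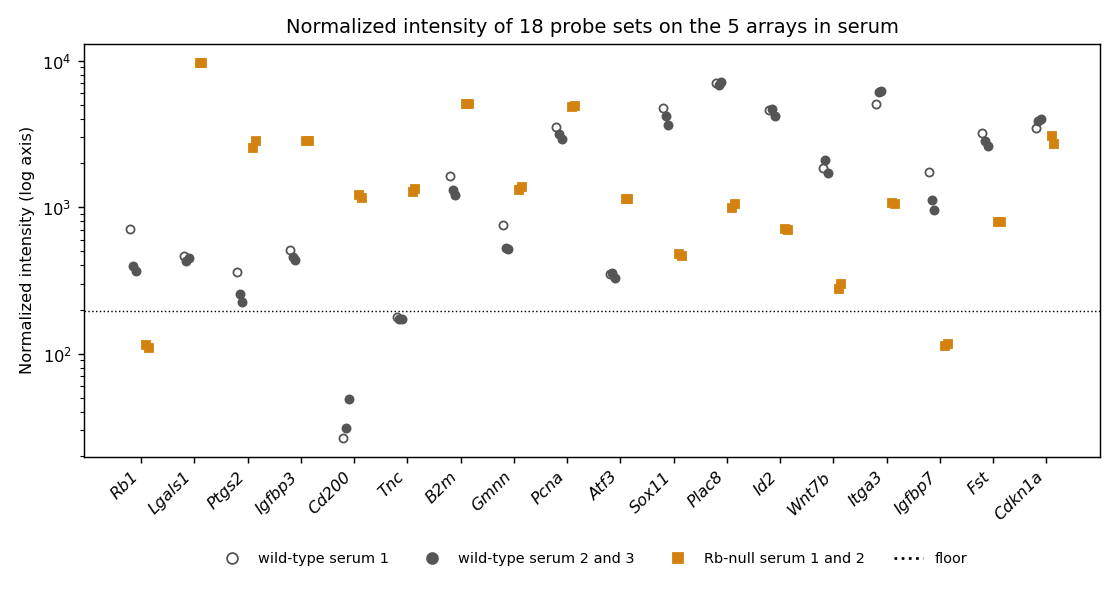
Normalized intensity (log axis) of 18 probe sets on each of the 5 arrays in serum: open circles are wild-type array 1, filled circles wild-type arrays 2 and 3, squares the Rb-null arrays, and the dotted line is the floor of 197. The Rb-null squares lie apart from all wild-type circles on each of the 18, as on every called probe set. Wild-type array 1 lies above its fellow arrays on several of them, most widely for Rb1, Ptgs2, Gmnn and Igfbp7.

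Genes of DNA replication, which include many classical E2F targets, rose more often than they fell. Each gene was counted by its brightest probe set. On that scale 990 of 7063 genes (14%) were higher and 742 (10.5%) lower, with a median log2 difference of -0.03. Without wild-type array 1, 22.8% of all genes were higher and 23.8% lower. The shares were 19.7% and 6.47% on the deposited values, and 17.4% and 7.33% after median scaling. With an Rb-null array left out, which left 1 array in that group, calls were fewer over all genes too. A smaller count in a list or on a chromosome under that setting is therefore not by itself a loss particular to it. List counts under the other settings are to be read against the share of that setting. Among 18 genes of the MCM helicase and origin firing 7 rose and none fell (median 0.26), while 12 rose without wild-type array 1, as on the deposited values and after median scaling. Among 23 genes of the replicative polymerases, the sliding clamp and the single-strand binder RPA, 11 rose and 3 fell (median 0.27; 15 and 4 without that array). The rises of both lists were fewer with an Rb-null array left out, as were those over all genes. Both medians were above 0 against each wild-type array alone, from 0.13 against array 1 to 0.45 against array 3.

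Gmnn, geminin, which restrains the licensing factor Cdt1, read 758, 530.1 and 515 against 1313 and 1379 (log2 1.19, SE 0.15, adjusted p = 0.00063). Cdc6, which loads the MCM helicase, read 853, 715 and 685 against 1286 and 1347 (log2 0.82, SE 0.11, adjusted p = 0.000744). Pcna, the sliding clamp, read 3532, 3176 and 2913 against 4797 and 4926 (log2 0.60, SE 0.08, adjusted p = 0.00106). In each case wild-type array 1 was the closest to the Rb-null arrays. Dbf4, the activator of the Cdc7 kinase, rose by 1.11, Prim2 of primase by 0.60 and Pole2 of polymerase epsilon by 0.41, while Pold1, the catalytic subunit of polymerase delta, fell by 0.51. DNA repair genes had 8 higher and none lower of 23 (median 0.09; 10 and 2 without wild-type array 1, and 2 and 1 higher without one or the other Rb-null array), with the Ku70 gene Xrcc6 at 0.78. Of 32 mitosis genes 9 rose and 3 fell (median 0.15; 16 and 5 without wild-type array 1). Stmn1, a tubulin-binding protein, rose by 0.42 and the tubulin gene Tubb5 fell by 0.33. With an Rb-null array left out, 3 or 1 of the mitosis genes rose.

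The promoters of replication genes were searched for the E2F motif, and those of called-higher members with a match are shown because Rb acts through E2F. The RefSeq promoter table (build GRCm38.p6) held 14 of the 18 distinct members called higher and 22 of the 23 not called higher. The letters TTTCCCGC, TTTGGCGC, TTTCGCGC and TTTGCCGC were searched on both strands in the 250 bases before each gene's start. A match was found for 2 of the 14 (14.3%), for 5 of the 22 (22.7%), for 3.8% of all tested genes with a promoter in the table and for 1.86% of all promoters there. The members with a match among those called higher were Cdc6 and Pola1, the catalytic subunit of polymerase alpha, which read 707, 525 and 501 against 937 and 898 (log2 0.68, SE 0.14, adjusted p = 0.00796). Their windows of 120 bases around the match, 5′ to 3′ on the gene's strand with the matched letters in capitals, lie at chr11:98907953-98908072 (plus strand) and chrX:93632234-93632353 (minus strand).
Cdc6: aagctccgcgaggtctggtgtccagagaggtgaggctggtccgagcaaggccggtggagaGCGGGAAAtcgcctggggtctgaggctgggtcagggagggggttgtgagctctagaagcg
Pola1: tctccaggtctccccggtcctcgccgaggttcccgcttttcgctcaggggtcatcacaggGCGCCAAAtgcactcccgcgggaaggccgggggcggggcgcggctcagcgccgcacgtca

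Of 8 pocket protein and E2F genes, 2 were called, Rb1 itself and E2f8, a repressing E2F, which read 1581, 1664 and 1666 against 983 and 958 (log2 -0.75, SE 0.08, adjusted p = 0.00017). E2f3 (-0.14, adjusted p = 0.236) and E2f5 (-0.16, adjusted p = 0.185) did not pass. Of 11 cyclin and kinase genes of G1 and S phase, 1 rose and 2 fell. Cyclin D1 (Ccnd1), the partner of the kinases that phosphorylate Rb, fell from 7150.0, 7687 and 7781 to 5075 and 5174 (log2 -0.56, SE 0.05, adjusted p = 0.000101) and cyclin D3 (Ccnd3) by 0.41. Cdk2, a kinase of S phase entry, rose by 0.53. The call of Ccnd3 or Cdk2 was lost without Rb-null array 2. Among 6 inhibitors of these kinases Cdkn1a (p21) fell by 0.40 (adjusted p = 0.00658) and Cdkn2b (p15) rose by 0.30 (adjusted p = 0.0364, not called with Rb-null array 1 or 2 left out). The fall of Cdkn1a was not called on the deposited values (adjusted p = 0.0663), after median scaling (0.0546) or without Rb-null array 2 (0.0934).

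The next list holds p53, the stress-activated tumour suppressor, and its targets. Of its 14 genes 6 fell and 1 rose (median -0.19; 9 and 1 without wild-type array 1). The calls were fewer with either Rb-null array left out, as over all genes. Perp, a p53 target that is also a desmosome protein, read 3926, 4885 and 4758 against 1957 and 1826 (log2 -1.25, SE 0.10, adjusted p = 4.91e-05). Zmat3, a p53-induced RNA-binding protein, fell by 0.62, Phlda3, which restrains Akt, by 0.66, and Sfn, the 14-3-3 sigma protein, by 0.65; the last pair was not called without Rb-null array 2. The list's falls numbered 4 on the deposited values and after median scaling, where its median was -0.01 and -0.04.

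Phosphorylation of the initiation factor eIF2 raises translation of ATF4, which then activates amino acid synthesis, tRNA charging and the pro-apoptotic factor CHOP. Of 22 measured genes of that response and of amino acid synthesis 12 rose (54.5%) and none fell (median 0.32; 13 and 2 without wild-type array 1; 6 and 7 higher without one or the other Rb-null array). Atf3, a transcription factor induced by ATF4, read 349, 355 and 328 against 1139 and 1137 (log2 1.73, SE 0.11, adjusted p = 7.8e-06). Ddit3, which encodes CHOP, read 568, 566 and 587 against 1285 and 1226 (log2 1.13, SE 0.08, adjusted p = 1.64e-05). Nupr1, a small stress-induced nuclear protein, lay at the floor on wild-type arrays at 120.4, 125 and 129 and read 460.2 and 420.3 in Rb-null cells, at least 2.24-fold higher. Atf4 itself rose by 0.50 (SE 0.05, adjusted p = 0.00022). Wild-type array 1 was within the other wild-type values or close to them for these genes.

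Enzymes that charge tRNAs and translation factors had 14 higher and 3 lower of 39 (median 0.17; 18 and 5 without wild-type array 1, and 7 or 6 higher without one or the other Rb-null array). Iars, the isoleucine enzyme, read 2149, 1670.5 and 1583 against 3461 and 3564 (log2 0.98, SE 0.12, adjusted p = 0.000406). The arginine (Rars), glutamate-proline (Eprs) and threonine (Tars) enzymes rose by 0.75, 0.71 and 0.65. Chaperones of the endoplasmic reticulum went both ways, with 4 higher and 3 lower of 20 (9 and 7 without wild-type array 1, 8 and 3 on the deposited values): the lumenal chaperone Hspa5 (BiP) rose by 0.72 and the disulfide isomerase Pdia4 fell by 0.86.

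A search for the amino acid response element, TGATGNAA on either strand, gave a match in 5 of 20 promoters of called-higher members of these lists (25%), 3 of 26 not called higher (11.5%), 2.42% of tested genes and 3.45% of all promoters. The windows of Atf3 (chr1:191183384-191183503, minus strand), Nupr1 (chr7:126625521-126625640, minus strand) and Tars (chr15:11399659-11399778, minus strand) are printed because the element, in capitals, has the same letters in each.
Atf3: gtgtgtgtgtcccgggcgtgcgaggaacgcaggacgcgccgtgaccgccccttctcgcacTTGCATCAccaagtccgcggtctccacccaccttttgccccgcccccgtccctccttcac
Nupr1: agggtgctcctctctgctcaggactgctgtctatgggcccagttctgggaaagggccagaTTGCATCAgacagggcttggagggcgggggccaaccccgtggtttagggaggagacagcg
Tars: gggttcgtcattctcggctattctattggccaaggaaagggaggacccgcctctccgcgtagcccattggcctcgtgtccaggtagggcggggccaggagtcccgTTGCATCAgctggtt

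Class I MHC and interferon genes contained further rises. Of 13 measured genes that load and display peptides to T cells 5 rose and 1 fell (median 0.13; 6 and 4 without wild-type array 1; 2 higher with Rb-null array 1 or 2 left out). B2m read 1629, 1309 and 1220.0 against 5038 and 5075 (log2 1.88, SE 0.11, adjusted p = 5.41e-06). The heavy chain genes H2-K1 and H2-D1, whose probe sets can pick up near-identical relatives, rose by 0.41 and 0.50, and Tap1, a peptide transporter, fell by 0.37. The calls of H2-D1 and Tap1 were lost with Rb-null array 1 or 2 left out. Interferon genes had 8 higher and 2 lower of 34 (median 0.10; 11 and 8 without wild-type array 1). Isg15, a ubiquitin-like protein, read 366, 378 and 396 against 616 and 629 (log2 0.71, SE 0.09, adjusted p = 0.000506), the exonuclease Isg20 rose by 0.83 and the membrane protein Ifitm3 by 0.62. Ifi202b, at the floor on all wild-type arrays, was at least 1.85-fold higher.

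The interferon-stimulated response element (ISRE), GAAA followed by any 2 bases and GAAA, searched on both strands, had a match in 3 of 12 promoters of members called higher (25%), in 7 of 29 not called higher (24.1%), in 3.15% of tested genes and in 2.98% of all promoters. The windows of B2m (chr2:122147488-122147607, plus strand), with the largest rise, and of Isg15 (chr4:156200825-156200944, minus strand), which held 3 overlapping matches, are shown with the matches in capitals.
B2m: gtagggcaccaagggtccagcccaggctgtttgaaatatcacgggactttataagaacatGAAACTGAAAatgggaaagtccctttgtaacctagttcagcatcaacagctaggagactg
Isg15: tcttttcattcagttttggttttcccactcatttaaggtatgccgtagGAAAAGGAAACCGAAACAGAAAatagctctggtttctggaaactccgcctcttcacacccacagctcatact

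Secreted signals of inflammation and growth were represented among the strongest differences. Chemokine, cytokine and NF-kB genes had 6 higher and 3 lower of 31. Il1a read 214, 223 and 226 against 777 and 735 (log2 1.77, SE 0.07, adjusted p = 4.95e-07), and the neutrophil chemokine Cxcl5, at the floor on all wild-type arrays, was at least 2.24-fold higher. In the growth factor list (7 higher, 4 lower of 27) the EGF receptor ligand Ereg and the lymphatic growth factor Vegfc lay at the floor on all wild-type arrays and were at least 1.97-fold and 2.43-fold higher, and Fgfr3, a receptor of fibroblast growth factors, fell by 0.75. The insulin-like growth factor list held both Igfbp3, one of the strongest rises, and Igfbp7, one of the strongest falls. Immediate-early genes, transcribed within minutes of a growth stimulus, had 11 higher and 6 lower of 31 (13 and 9 without wild-type array 1, 7 rises with Rb-null array 1 or 2 left out), with Cebpd at 0.72. Dusp1, a phosphatase of MAP kinases, fell from 3249, 2751 and 2338 to 972 and 1039 (log2 -1.45, SE 0.14, adjusted p = 0.000102).

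Of 23 smooth muscle type contractile genes measured, 12 fell (52.2%) and none rose (median -0.33). Falls numbered 18 without wild-type array 1 and 6 under either other scaling. They were fewer with either Rb-null array left out, as over all genes. The median kept its sign under each scaling and against each wild-type array. Cnn2, the actin binder calponin 2, read 2984, 2956 and 3043 against 1300.5 and 1079 (log2 -1.34, SE 0.09, adjusted p = 1.7e-05). Myh9, the heavy chain of non-muscle myosin, fell by 1.11, Smtn, which encodes smoothelin, fell by 1.09, and Actg2, whose probe set can pick up other actins, fell by 0.66. Non-muscle myosin also serves in the cortex and stress fibres of epithelial cells.

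Of 37 integrin, laminin and basement membrane genes 11 fell and 3 rose (13 and 4 without wild-type array 1, 4 falls with Rb-null array 1 or 2 left out, 7 falls and 5 rises under either other scaling), but the list's median, -0.07, turned positive under both other scalings. The tetraspanin Cd81 fell by 1.04 and the laminin chain Lama5 by 0.72 (not called without Rb-null array 2), whereas Lamb3, a chain of the hemidesmosomal laminin, rose by 0.61. Itga3 was read by a pair of probe sets that differed in size: 5026, 6085 and 6164 against 1069.7 and 1056 on one (log2 -2.43, SE 0.20, adjusted p = 4.7e-05), and a fall of 0.67 on the brighter one. Of 27 tight junction, gap junction and cadherin genes 7 fell and 1 rose (9 and 2 without wild-type array 1, 4 falls and 1 rise with Rb-null array 1 or 2 left out, 4 falls and 3 rises under either other scaling); Cldn1 fell by 0.87 and N-cadherin (Cdh2) by 0.75, and beta-catenin (Ctnnb1), the rise, by 0.69. The median of this list changed sign with the scaling as well.

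Desmosomal and cornified envelope genes divided evenly, with 7 higher and 7 lower of 21. Calls were fewer with either Rb-null array left out, as over all genes. Desmoplakin (Dsp), which anchors keratins to the desmosome, read 769, 561 and 596 against 1568 and 1635 (log2 1.33, SE 0.13, adjusted p = 0.000137), and plakophilin 1 (Pkp1) rose by 1.12. Perp and plakoglobin (Jup) fell by 1.25 and 0.56, the latter not called without Rb-null array 2. Among keratins and other intermediate filaments, Krt6a, a keratin of activated epidermis, read 1154, 1455 and 1524 against 3559 and 3479 (log2 1.36, SE 0.11, adjusted p = 4.71e-05), and nestin (Nes) fell by 1.36.

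Of 31 ephrin, semaphorin and plexin genes, which guide cell position, 8 fell and none rose (median -0.11; 10 and 2 without wild-type array 1; 2 and 3 falls without one or the other Rb-null array; 5 falls and 2 rises under either other scaling). Epha4 read 1127, 1042 and 986 against 443 and 449 (log2 -1.23, SE 0.09, adjusted p = 2.12e-05), and Epha2 fell by 1.08 and the ligand Efnb1 by 0.50 (not called without Rb-null array 1, adjusted p = 0.0537). Wnt and Frizzled genes had 7 lower and 3 higher of 34 (13 and 3 without wild-type array 1, 4 or 3 falls without one or the other Rb-null array): besides Wnt7b, Wnt10a fell by 0.83 and Wnt5a by at least 0.56. Of 24 Notch and Hedgehog genes 4 fell, among them the Notch effector Hes1 (-0.83) and the ligand Jag2 (-0.51), and Adam10, the protease that sheds Notch, was the 1 rise at 1.05 (adjusted p = 0.0592 without Rb-null array 2).

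Factors of the TGF-beta family divided, with 5 higher and 6 lower of 30 (3 falls with Rb-null array 1 or 2 left out). Follistatin (Fst), a secreted trap for activin, read 3208, 2809 and 2633 against 789.7 and 786 (log2 -1.87, SE 0.09, adjusted p = 1.89e-06), and the activin subunit Inhbb rose by 0.86 while Bmp7 fell by 0.72. Of the Id proteins, which block helix-loop-helix factors, Id2 fell as given above and Id3 rose from 640.0, 664 and 592 to 1341 and 1406 (log2 1.12, SE 0.10, adjusted p = 8.4e-05). Hence members of 1 family moved in opposite directions. Among 25 lineage factors of prostate epithelium 6 rose and 5 fell, with Foxa1 and Sox11 at the ends and Ets2 and Klf4 at 0.68 and 0.59.

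Glycolysis, lactate and hypoxia genes had 7 lower and 2 higher of 33 (median -0.14). There were 8 lower and 5 higher without wild-type array 1, and 7 rises with 6 falls on the deposited values. Calls were fewer with either Rb-null array left out, as over all genes. Ldhb, a lactate dehydrogenase subunit, read 1198, 1542 and 1427 against 366 and 412 (log2 -1.83, SE 0.12, limma adjusted p = 1.01e-05), and Aldoa, aldolase, fell by 0.36. Cholesterol synthesis had 4 rises and no fall among 20 (5 and 2 without wild-type array 1, 2 or 1 rises without one or the other Rb-null array, 7 on the deposited values), with Idi1 at 0.71 and Sqle at 0.52 (not called without Rb-null array 2, adjusted p = 0.0555). Of 45 glutathione and detoxification genes 6 rose and 6 fell (10 and 12 without wild-type array 1, 9 and 4 under either other scaling, 2 or 3 rises and 4 falls without one or the other Rb-null array). Gstm1 fell from 4038, 3599 and 3670.1 to 1313 and 1419 (log2 -1.46, SE 0.07, adjusted p = 1.67e-06). Gstm1 and Gstm2 belong to a family of close relatives whose probe sets may not be told apart. Of 24 genes of the nucleolus and ribosome assembly 5 rose and 1 fell (14 and 1 without wild-type array 1, 2 or 3 rises without one or the other Rb-null array), and of 26 cytosolic ribosomal proteins 1 rose and 3 fell.

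**Figure D4:**
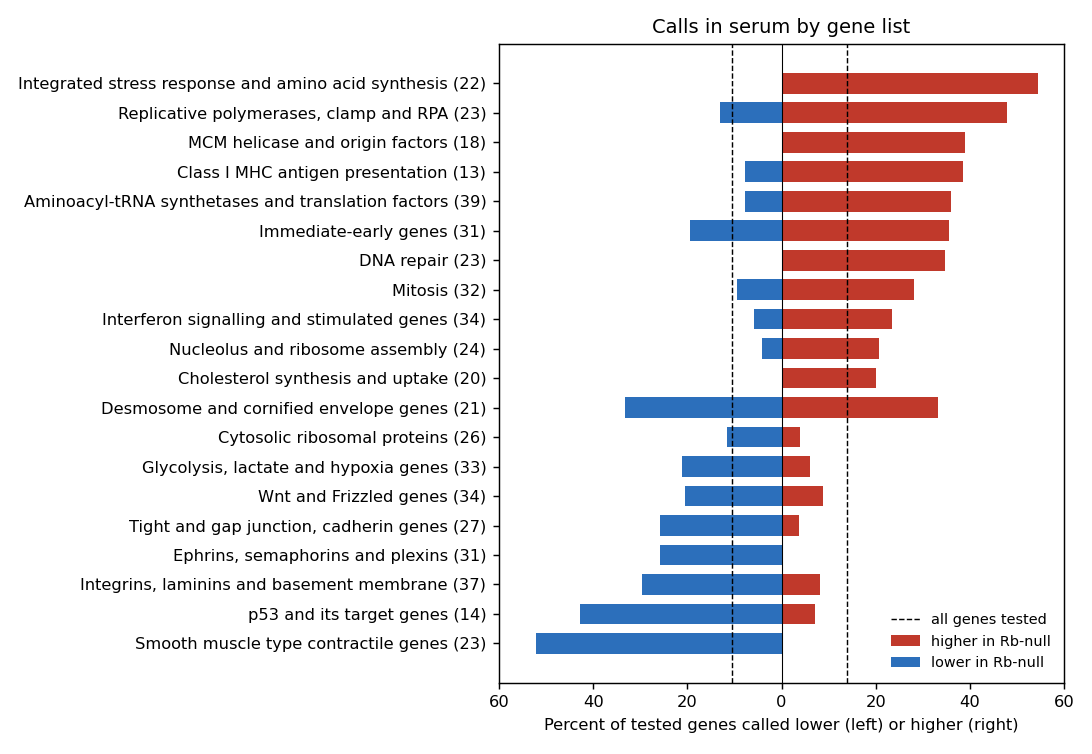
Percentage of the tested genes of 20 lists (number tested in parentheses) called lower (blue, to the left) or higher (red, to the right) in the Rb-null line in serum; dashed lines mark the same percentages over all 7063 genes, 10.5% and 14%. With all arrays and this scaling, the stress response list reaches farthest to the right at 54.5%, the contractile list farthest to the left at 52.2%.

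The calls were unevenly spread over the chromosomes, and the chromosomes named here were chosen after these values were seen. On chromosome 13, 102 of 246 tested genes (41.5%) were higher and 13 (5.28%) lower, with a median log2 difference of 0.12, and a median of 0.41 over its 88 genes with a mean intensity over 1000. Of all tested genes, 43.4% had a difference above 0; on chromosome 13, 63.8% did. The rises were not confined to a stretch: in gene order along the chromosome, 4 nearly equal groups of genes held 28, 25, 29 and 20. Without wild-type array 1, 45.9% of its genes were higher against 22.8% of all genes, and without serum 39.4% against 17.5%. On the deposited values 47.6% of its genes were higher against 19.7% of all genes. Its rises were fewer with either Rb-null array left out, as were those over all genes. The median was above 0 against each wild-type array (0.20, 0.14 and 0.13).

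Several genes described above lie on chromosome 13, among them Gmnn, Iars, Dsp and Idi1, with rises of 0.71 to 1.33, and also F2r and Fst, among the strongest falls. Chromosome 5 had the next largest share of rises, at 101 of 428 genes higher (23.6%) and 21 lower (4.91%). Without wild-type array 1 it had 147 higher and 78 lower. On chromosomes 7 and 12 falls prevailed: 24 of 573 genes were higher (4.19%) and 83 lower (14.5%) on chromosome 7, and 12 of 233 (5.15%) and 42 (18%) on chromosome 12. Without wild-type array 1, 56 were higher and 184 lower on chromosome 7, and 26 and 68 on chromosome 12. Calls on chromosomes 5, 7 and 12 were fewer with either Rb-null array left out, as over all genes. The median of chromosome 12 was below 0 against each wild-type array (-0.11, -0.08 and -0.09), and that of chromosome 7 likewise (-0.05, -0.12 and -0.13). DNA copy number was not measured in these samples, and its part in these shares was not tested.

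**Figure D5:**
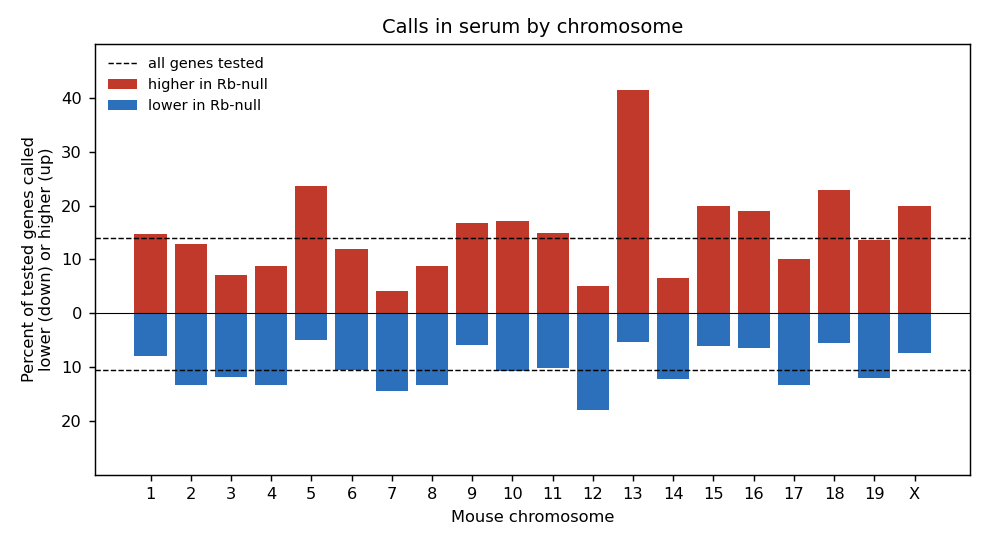
Percentage of the tested genes of each mouse chromosome called higher (red, upward) or lower (blue, downward) in the Rb-null line in serum, each gene by its brightest probe set; dashed lines mark the percentages over all 7063 genes. Chromosome 13 stands out with 41.5% higher, and chromosomes 7 and 12 have the fewest rises next to the most falls.

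Some differences leaned on wild-type array 1. Among called probe sets with a symbol, Rb1, Igfbp7, Gm15987 and Cldn1 shrank most when it was left out, Cldn1 on its dimmer probe set from -0.96 to -0.73. Aldh9a1, Ndel1, Brd1 and Hnrnpc grew most. Hnrnpc, an RNA-binding protein of the nucleus, read 470.2, 250.3 and 232 against 682 and 632, a difference of 1.13 with the array and 1.45 without it. The calls of Aldh9a1, Ndel1, Brd1 and Hnrnpc were lost on serum arrays alone. Each was also lost with Rb-null array 1 or 2 left out, which leaves 1 array in that group. Each of these genes kept its direction.

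Where several probe sets read 1 gene they mostly pointed the same way. Calls in both directions were found for 17 of the 163 genes that had 2 or more called probe sets. The widest gap was that of Atf3, at 1.73 on one probe set and -0.38 on a dim one. Ywhag, a 14-3-3 protein, differed by 0.21 on a bright probe set and by -1.55 on another, Csnk1d, a casein kinase, by 0.74 and -0.64, and Ndel1 by 0.91 and -0.36.

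The difference between the lines in serum was set against that without serum by an interaction term. Of the 2287 probe sets called in serum, 2187 had the same sign without serum and 1611 were called there in the same direction, where 30.7% of all tested probe sets were called; 10 were called in the opposite direction. The difference between media itself was called on 90 probe sets (0.929%), 61 of them also called in serum. Tnc was higher by at least 2.72 in serum and by at least 0.64 without on the log2 scale, with wild-type cells at the floor in both media. Its interaction value of 2.08 is therefore the change of the Rb-null arrays between media, and neither an estimate nor a bound. The limma test of it (SE 0.10, adjusted p = 1.48e-05) takes in no wild-type change below the floor. The heat shock genes Hspa1a and Hspa1b, near-identical neighbours whose probe sets may read each other, were higher in the Rb-null line in serum and lower without it. Hspa1a read 302, 286 and 305 against 608 and 631 in serum, and 468 and 491 against 343 and 319 without serum (difference 1.59, SE 0.11, adjusted p = 0.00046). Thus the direction turned, with no overlap in either medium. Fst, lower by 1.87 in serum, was lower by 0.50 without it (difference -1.36, SE 0.14, adjusted p = 0.00426).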

How the data were processed

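Total RNA of 1 wild-type and 1 Rb-/- prostate epithelial line was read on 9 single-channel arrays. The deposited values are linear intensities. The labels do not state how the authors summarised probes or scaled arrays. Deposited medians ran from 444.85 to 473.75 and upper quartiles from 990.54 to 1153.27. Because the upper quartiles spanned 0.22 on the log2 scale, above the limit of 0.1, the arrays were quantile normalized. Values under the 25th percentile (196.67) were raised to it, and the 9686 probe sets above it on at least 2 arrays were fitted on the log2 scale.

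The fit used limma 3.58.1 in R 4.3.3, with 4 group means over all 9 arrays, an intensity trend in the variance, 5 residual and 4.198 prior degrees of freedom, and Benjamini-Hochberg adjustment at 0.05, two-sided. A difference between media was called from the interaction term. On simulated data with 200 changed probe sets among 9567, the fit of the serum comparison called 64.18% at a log2 change of 0.5, 97.01% at 1 and 100% at 2, and 7.447% of calls were false. The changed probe sets were drawn from brighter ones only, and the noise was independent with no array set apart. These rates therefore do not cover dim probe sets or an array like wild-type array 1.

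Of 12422 probe sets, 10833 carried 1 gene symbol, 396 several and 1193 none in GEO's platform annotation, which can be old. Gene lists (59, with 1767 symbols, of which 1329 were tested) count each gene by its brightest probe set; 25 symbols matched by an older name and 4 did not match. The comparison and the lists were chosen with earlier results of these data known. Named genes are Rb1, the 15 highest and 15 lowest called probe sets measurable in both lines, up to 6 in each direction with the lower group at the floor, up to 4 per list with the smallest adjusted p, the 4 that lost and the 4 that gained most without wild-type array 1, and up to 4 genes called in both directions. Pola1 was named for its promoter match, and the probe set without a single symbol for its size, both chosen after their values were seen. Where a group lay at the floor, folds are bounds. Promoters are RefSeq's, build GRCm38.p6. Alternatives were other scalings, floors and filters, serum arrays alone, array weights, no variance trend, a replicate block, and each array in serum left out. The result of 1 gene list is not reported here.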

Additional observations from a re-analysis of the deposited data

Results flagged for a closer look

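For 30 of the 257 named probe sets the difference between the lines in serum departed from that without serum by the interaction term (limma, adjusted p under 0.05). Of all tested probe sets 0.929% did. Most named probe sets were chosen by their serum difference, which is part of the interaction term, so these shares cannot be compared. The values below are the serum difference minus the serum-free difference on the log2 scale. A positive value means a larger rise, or a smaller fall, of the Rb-null line in serum. Where a line lay at the floor, the value rests on a bound, and where it did so in both media the value is neither an estimate nor a bound.

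On the positive side were Tnc at 2.08, Sparc at 1.81, Igfbp3 at 1.22, Clu at 1.22 and 1.2 on its probe sets, Il1a at 0.76, Col8a1 at 0.73, Cxcl5 at 0.69 and Cxcl1 at 0.68. The heat shock genes Hspa1b (2.08) and Hspa1a (1.59) changed direction between media. Dbf4 stood at 1.11, Krt6a and Sfn at 0.95, the protease Ctsh at 0.84, Krt20 at 0.77, Cebpd at 0.49, the kinase inhibitor Pkia at 0.44 and Ccnd1 at 0.43. On the negative side were Nupr1 and Peg3, both at -1.48, Fst at -1.36, the annexin Anxa8 at -1.21, Ifi202b at -1.04, Ptpn22 at -0.99, Aldh2 at -0.9, Cyth3 at -0.89, the amino acid carrier Slc1a5 at -0.72, Plet1 at -0.66 and Ndrg1 at -0.59.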

How the results depend on the processing

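Of 239 called named probe sets, 159 were called under all 16 alternatives that gave a value, 80 lost the call under at least 1, and none reversed; 11 pairs of probe set and alternative gave no value. The total of 2287 calls (1279 higher, 1008 lower) moved to 1505 (850, 655) on serum arrays alone, 4593 (2166, 2427) on those without wild-type array 1, and 5544 (2490, 3054) with array quality weights; the causes were not tested. Lower calls numbered 644 on the deposited values. Leaving out 1 serum array at a time gave 823 to 4370 calls, 502 to 2091 higher and 321 to 2279 lower, with the low ends without Rb-null array 2 and the high ends without wild-type array 1. Without wild-type array 1, 48 rather than 30 named probe sets differed between media. Col3a1, not called at -0.17, turned to 0.0731 without wild-type array 1, with or without the serum-free arrays, and to 0.0738 with array weights; leaving out 1 array at a time gave -0.3092 to 0.0731. With the replicate number as a block 1595 were called (896 higher, 699 lower). Arrays of the same number did not clearly deviate together (correlations 0.018 and 0.067), so the numbers were not taken to pair the samples. The small number of arrays limits all values, and levels under the floor were not resolved.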

Other observations

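Gene groups not described above were mixed. Mesenchymal matrix genes had 5 higher and 4 lower of 28, with the collagen gene Col8a1 at 193, 198 and 195 in wild-type cells and 583 and 601 in Rb-null cells in serum (log2 1.59, limma adjusted p = 1.3e-06). Secreted and membrane proteases and their inhibitors had 6 higher and 8 lower of 36 (4 or 2 lower without Rb-null array 1 or 2): the cathepsin Ctsh rose by 1.56 and the membrane metalloprotease Mmp14 fell by 1.18. Among 17 annexin and S100 genes 4 rose and 3 fell, with Anxa8 falling by 1.66 and Anxa1 rising by 0.51. Among 31 solute carriers 4 rose and 1 fell (8 and 5 without wild-type array 1), with the phosphate carrier Slc20a1 at 1.60.

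Caveolar and protein kinase A scaffold genes had 2 higher and 4 lower of 14 (7 lower without wild-type array 1): the coat protein Cavin1 fell by 2.24, whereas Cavin3 rose by 0.66. In the growth-arrest list (4 higher, 3 lower of 22; 4 and 7 without wild-type array 1, 1 and 2 with either Rb-null array left out) Ndrg1 rose by 1.21, Gas5 fell by 0.83 and Txnip fell by 0.72. Proteasome and ubiquitin genes had 8 higher and 4 lower of 37 (14 and 4 without wild-type array 1, 2 or 1 higher without Rb-null array 1 or 2), with the autophagy receptor Sqstm1 at 0.76.

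The lists not counted above read as follows. Insulin-like growth factor genes had 5 higher and 2 lower of 17, galectin, clusterin and surface glycoprotein genes 6 and 5 of 27, and Id and helix-loop-helix factors 2 and 5 of 27. Prostaglandin genes had 3 and 1 of 16, MAP kinase phosphatase, Sprouty and Ras genes 3 and 2 of 16, and keratins and intermediate filaments 2 and 2 of 21. Respiratory chain and TCA cycle genes had 9 higher and 3 lower of 49, and heat shock proteins 6 and 2 of 26. Genes of fatty acid metabolism had 6 and 3 of 28, and those of DNA methylation, chromatin assembly and polycomb 6 and 3 of 25. Nucleotide synthesis had 4 and 2 of 19, lysosomal proteins 5 and 4 of 27, and splicing and RNA-binding proteins 3 and 3 of 32. Caspase and BCL2 family genes had 1 and 4 of 22, imprinted genes 2 and 3 of 20, and metallothionein and metal handling genes 0 and 2 of 14. Without Rb-null array 2 none of these 16 lists had more than 4 genes called in either direction.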
